A study of Mus musculus with 6 samples.

Results

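Cohesin genes were read in testes of Dazap1 mutant mice and of their wild-type counterparts, by taking every probe set whose annotated gene symbol was exactly Smc1a, Smc1b, Smc3, Stag1, Stag2, Stag3, Rad21, Rad21l, Rec8 or Nipbl. Of these 10 genes, 9 had a probe set, and together they had 24 of the 45037 probe sets in the table. No probe set carried the symbol Rad21l, so this gene was not analysed here. The Fn group held 3 samples of mice homozygous for the Fn allele of Dazap1, a gene for an RNA-binding protein abundant in testis, and the Wt group held 3 wild-type samples. Both genotypes had a mixed C57BL/6 and 129 background, and whole testes were taken at postnatal day 21. The study was concerned that spermatocytes of Fn testes at this age might lag behind those of Wt testes, since the mutants grow slowly. For its exon arrays, which are not read here, it therefore used adult Fn testes. Whether the Fn testes read here lagged in stage was not tested. The Fn allele carries a neomycin cassette together with loxP sites and is not a null: it makes an altered DAZAP1 protein with extra residues between its RNA recognition motifs. Most Fn homozygotes die around birth and the survivors are small with arrested spermatogenesis, so the Fn samples come from surviving animals only. Each sample was hybridised to its own one-colour Affymetrix mouse array, and values are MAS5 signals, a linear brightness per probe set. Signals of different probe sets are not on one scale, so genes were not ranked by level, and differences or sums over probe sets are read only for how they differ between genotypes.

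Cohesin is a ring that holds sister chromatids together and forms chromatin loops. Its core is a pair of SMC proteins, closed by a kleisin (RAD21 in general, REC8 or RAD21L in meiosis) to which a STAG protein binds, and NIPBL loads the ring onto chromatin. Germ cells entering meiosis replace part of the general set with SMC1B, STAG3, REC8 and RAD21L, which build the chromosome axes of prophase and hold homologous and sister chromatids in place until the meiotic divisions, whereas SMC3 serves in both kinds of ring.

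The promoter windows of a meiotic subunit and of its general relative are shown first because the results set these pairs against each other. RefSeq promoter windows of assembly GRCm38.p6, running from 250 bases before to 50 bases after a transcript start, were matched to 7 of the 10 genes (not to Rad21, Stag2 and Nipbl). The start used is the outermost one of the gene in Smc1b, Smc1a and Smc3. It lies inside the annotated gene in the others, by 7995 bases in Stag3, 45739 in Stag1, 164 in Rec8 and 2089 in Rad21l, so those windows do not show the outermost start. Capitals mark TTCCCGC, an element bound by E2F factors, and in the Stag3 window also CACGTG, an E-box, each searched on both strands. The Smc1b window lies at chr15:85131908-85132207 on the minus strand, the Smc1a window at chrX:152016178-152016477 on the plus strand, the Stag3 window at chr5:138280259-138280558 on the plus strand and the Stag1 window at chr9:100643198-100643497 on the plus strand.
Smc1b: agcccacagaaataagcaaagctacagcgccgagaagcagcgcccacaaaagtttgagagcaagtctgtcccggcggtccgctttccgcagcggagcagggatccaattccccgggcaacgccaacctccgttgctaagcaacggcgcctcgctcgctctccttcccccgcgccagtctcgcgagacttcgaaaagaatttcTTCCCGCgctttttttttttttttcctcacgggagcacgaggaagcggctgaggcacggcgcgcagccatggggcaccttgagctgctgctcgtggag
Smc1a: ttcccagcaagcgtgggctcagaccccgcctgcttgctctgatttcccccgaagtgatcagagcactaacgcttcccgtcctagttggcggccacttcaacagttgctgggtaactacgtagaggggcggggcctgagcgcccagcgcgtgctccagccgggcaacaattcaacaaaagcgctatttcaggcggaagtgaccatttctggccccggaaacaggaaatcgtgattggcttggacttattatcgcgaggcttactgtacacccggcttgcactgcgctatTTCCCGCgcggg
Stag3: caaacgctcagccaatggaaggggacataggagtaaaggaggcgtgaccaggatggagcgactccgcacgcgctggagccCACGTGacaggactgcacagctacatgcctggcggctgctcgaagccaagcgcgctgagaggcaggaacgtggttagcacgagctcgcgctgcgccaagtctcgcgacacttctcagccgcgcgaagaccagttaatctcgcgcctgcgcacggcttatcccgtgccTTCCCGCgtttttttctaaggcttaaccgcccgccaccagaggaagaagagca
Stag1: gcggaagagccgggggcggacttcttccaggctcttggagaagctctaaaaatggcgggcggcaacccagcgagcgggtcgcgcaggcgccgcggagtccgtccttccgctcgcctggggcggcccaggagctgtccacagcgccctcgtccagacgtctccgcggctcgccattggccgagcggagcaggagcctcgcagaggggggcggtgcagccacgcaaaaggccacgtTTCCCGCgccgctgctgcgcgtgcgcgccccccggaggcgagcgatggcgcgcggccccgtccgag
The E2F element occurred in these 4 windows and in none of the windows of Rec8, Rad21l and Smc3, against 4.60% of all 32851 windows of the table. It began 48 bases before the start used for the window in Smc1b, 3 bases before it in Stag3 and 16 bases before it in Stag1, and at base 39 after it in Smc1a. An E-box was found in Stag3 alone among the 7, against 7.15% of all windows, and the cAMP response element TGACGTCA in none, against 1.79%. CpG dinucleotides numbered 29 in the Smc1b window, 23 in Smc1a, 30 in Stag3, 43 in Stag1, 32 in Smc3, 18 in Rec8 and 2 in Rad21l, with a median of 7 over all windows. The E2F element was present in windows of both meiotic and general genes, and whether it bears on their changes in Fn testes was not tested. A match describes letters in a window and not a site in use. The E2F element itself holds a CpG. Its share among windows as rich in CpG was not computed, so 4.60% is not a matched background.

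Transcripts of the meiotic subunits Smc1b and Stag3 were lower in Fn than in Wt testes, and Rec8 was not called. Transcripts of every general subunit of the ring were higher, while the loader Nipbl was lower. The brightest probe set of Stag1 was called only without centring of the arrays on their medians. A gene is represented by its brightest probe set, and a call means an adjusted p under 0.05 from limma. Of 3 meiotic genes tested 2 were lower and 0 higher, and of 6 general genes 1 was lower and 5 were higher. Among all 13447 genes tested, 24.7% were called lower and 44.9% higher, so a rise was the commonest outcome over the whole array. The median log2 change of Fn against Wt was -0.55 over the 3 meiotic genes and 0.87 over the 6 general genes, beside 0.32 over all genes. Relative to the median of all genes, these medians were -0.88 and 0.54. The meiotic median minus the general median was -1.42, and with Nipbl left out, a choice made after seeing the data, it was -1.44. Among the general genes Smc1a and Stag2 are X-linked, and the median log2 change of X-linked genes tested was 1.01.

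**Figure D1:**
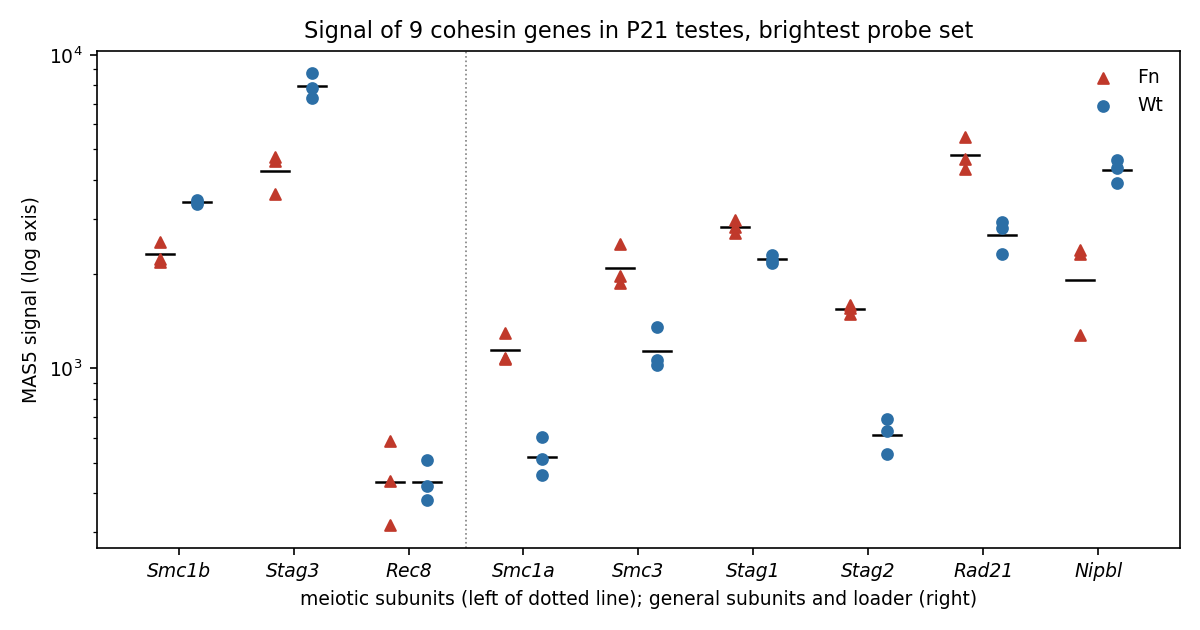
MAS5 signal (logarithmic axis) of the brightest probe set of each of 9 cohesin genes in the 3 Fn arrays, left, and the 3 Wt arrays, right. Points are single arrays and lines are geometric means of 3 arrays. The Fn points of Smc1b, Stag3 and Nipbl all lie below the Wt points, those of Rec8 overlap them, and those of the other 5 genes all lie above.

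Counts can also be given by probe set, where probe sets of the same gene are repeated readings of the same arrays and not independent support. Of the 24 probe sets, 23 passed the filter on dim signal and were tested, and 5 were called lower and 14 higher, with 4 not called. Over all 27022 probe sets tested, 20.2% were called lower and 41.8% higher. By the plain order of the values, 2 of the 3 meiotic genes had every Fn array below every Wt array and 5 of the 6 general genes had every Fn array above, against 26.6% of all genes lower and 48.9% higher without overlap.

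Smc1b (GRCm38.p6 chr15:85064689-85131957, as in all gene positions given) encodes the meiotic partner of SMC3 and replaces SMC1A in most rings of the prophase axis. Its 1 probe set, 1449253_at, gave signals of 2225.3, 2530.8 and 2191.4 in Fn testes, against 3385.3, 3336.9 and 3441 in Wt testes. All 3 Fn arrays were low, and the groups did not overlap. The log2 change was -0.55 (standard error, SE, 0.086, 95% interval -0.74 to -0.36, limma adjusted p = 0.000413), a signal 1.47-fold lower in Fn testes. Of all genes, 20.5% had a lower change than Smc1b.

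Stag3 (chr5:138272514-138312397) encodes the STAG subunit of the meiotic rings, and mouse spermatocytes without it do not assemble normal axes. Its 1 probe set, 1460229_at, gave 3599.5, 4709.9 and 4597.2 in Fn testes, against 7874.7, 7286.3 and 8738.9 in Wt testes. Fn replicate 1 was the lowest of the 6 arrays, and the highest Fn array stayed well under the lowest Wt array. The log2 change was -0.90 (SE 0.11, limma adjusted p = 0.000123), 1.86-fold lower, and 15.2% of genes had a lower change. In whole testes, fewer cells of a type and less RNA per cell cannot be told apart.

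Rec8 (chr14:55618002-55625395), the kleisin that keeps sister chromatids joined until the second meiotic division, was not called. Its probe set 1419147_at gave 437, 315.3 and 585.8 in Fn testes, against 509.4, 420.8 and 380.9 in Wt testes. The lowest and the highest of the 6 values were both Fn arrays, so the groups overlapped. The log2 change was -0.01 with a 95% interval from -0.50 to 0.48 (limma adjusted p = 0.98), so Fn over Wt ratios from 0.71 to 1.40 remain within the interval, and the sign turned when Fn replicate 2 or Wt replicate 1 was left out (log2 0.22 and 0.11, neither called). Whether Rec8 differed in its change from Smc1b or Stag3 was not tested.

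Among the general subunits, Smc1a showed a rise that varied with the probe set. SMC1A pairs with SMC3 in somatic rings, and its gene lies at chrX:152016428-152061973. The brightest probe set, 1417830_at, gave 1078.1, 1070.3 and 1293.2 in Fn testes, against 601.1, 511.3 and 456.7 in Wt testes. All Fn arrays were above all Wt arrays, with Fn replicate 3 the highest, for a log2 change of 1.14 (SE 0.14, limma adjusted p = 9.6e-05), 2.20-fold higher. The other probe sets of Smc1a were dimmer: 1417832_at was higher by 0.71 (limma adjusted p = 0.014), and 1417831_at had a change of 0.54 with overlapping groups and was not called (limma adjusted p = 0.080). With the replicate number as a block the last one had an adjusted p of 0.023 from limma, and without Fn replicate 3 it had 0.0097. In the other settings tried 1417831_at stayed uncalled, with a limma adjusted p of up to 0.26 (without Fn replicate 2).

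Stag2 (chrX:42149297-42277186), the other X-linked member, had the largest rise of the 9 genes. STAG2 is the common STAG protein of dividing somatic cells. Its probe set 1421849_at gave 1591.8, 1491.7 and 1554.6 in Fn testes, against 687.7, 629.9 and 530.6 in Wt testes. The 3 Fn arrays were close together and far above the Wt arrays, a log2 change of 1.34 (SE 0.12, limma adjusted p = 1.5e-05), 2.52-fold higher, and 97.8% of genes had a lower change. The second probe set, 1450396_at, was higher by 0.96. Genes of the X chromosome as a whole were higher in Fn testes: of 462 tested, 398 were called higher and 15 lower, with a median log2 change of 1.01. By their brightest probe sets, Smc1a, at 1.14, and Stag2, at 1.34, stood above this median of their chromosome. Their other probe sets stood below it, at 0.71 and 0.54 for Smc1a and 0.96 for Stag2. How much of the rise of these genes is shared with other X-linked genes was not tested.

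Rad21 (chr15:51962604-51993538), the kleisin of the general rings and the protein cut by separase at anaphase, was higher by all 3 of its probe sets. The brightest, 1416161_at, gave 5489.2, 4331.5 and 4650.7 in Fn testes, against 2799.8, 2922.7 and 2317.7 in Wt testes. Fn replicate 1 was the highest, and no Fn array came down to the Wt range. The log2 change was 0.85 (SE 0.12, limma adjusted p = 0.00020), and the other probe sets gave 0.89 (1416162_at) and 0.79 (1455938_x_at). The suffix of the last one marks a probe set that may bind other transcripts too.

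Smc3 (chr19:53600396-53645831), shared by general and meiotic rings, also had higher signals. Its bright probe set 1450950_at gave 2491.3, 1872.1 and 1969.5 in Fn testes, against 1349.2, 1023 and 1060.1 in Wt testes. The groups did not overlap, and the log2 change was 0.88 (SE 0.14, limma adjusted p = 0.00054), 1.84-fold higher. The dim probe set 1450951_at had 0.46 with overlapping groups and was not called (limma adjusted p = 0.17). A subunit common to both kinds of ring thus rose in Fn testes while the meiotic partner Smc1b fell.

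Stag1 (chr9:100597709-100958544), whose product is the other STAG protein of somatic rings and serves cohesion at telomeres, had the smallest rise. All 6 of its probe sets were called higher, with log2 changes of 0.35 (1431921_a_at), 0.44 (1421940_at), 0.62 (1434189_at), 0.59 (1421939_a_at), 0.76 (1450420_at) and 1.05 (1441724_at). The brightest gave 2970, 2701.4 and 2829.6 in Fn testes, against 2216.6, 2169 and 2291.5 in Wt testes. Its groups did not overlap (limma adjusted p = 0.0044), but its change was only 0.02 above the median of all genes. When each array was centred on its median signal, the call was lost (log2 0.19, limma adjusted p = 0.19), and so were those of 1421940_at and 1441724_at. Probe sets 1434189_at, 1421939_a_at and 1450420_at kept their calls under centring. The dimmest, 1441724_at, had 91.5, 123.9 and 82.6 in Fn testes and 46.9, 75.4 and 29.6 in Wt testes. Its Wt geometric mean of 47.1 was under the filter level of 48.0. Its call (limma adjusted p = 0.032) was lost when Fn replicate 1, Fn replicate 2, Wt replicate 1 or Wt replicate 3 was left out. It was also lost under quantile normalization, under centring and without the filter.

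Nipbl (chr15:8289824-8465315), the loader, went against the other general genes. Its brightest probe set 1437158_at gave 2318.4, 2385 and 1278.4 in Fn testes, against 4354.1, 4612.2 and 3904.1 in Wt testes. Fn replicate 3 was the lowest, and all Fn arrays lay below the Wt arrays (log2 change -1.16, SE 0.21, limma adjusted p = 0.0010), 2.23-fold lower. Probe set 1453576_at gave the tightest values of the 5, with 744.3, 703.7 and 703.5 in Fn testes against 1481.5, 1382.6 and 1486.4 in Wt testes, a log2 change of -1.02 (limma adjusted p = 2.5e-05). The other Nipbl probe sets were less certain: 1430309_at, at 937.5, 1754.4 and 353.3 in Fn testes against 2058.6, 3130.6 and 1491.7 in Wt testes, overlapped between genotypes and was called lower (-1.35, limma adjusted p = 0.035). Leaving out Fn replicate 1, Fn replicate 3, Wt replicate 1 or Wt replicate 2 ended that call, and without Fn replicate 3 its change was -0.73. Probe set 1443992_at had -0.44 and was not called (limma adjusted p = 0.16), though it was without Wt replicate 3 (limma adjusted p = 0.030), and 1442103_at was under the filter level and was not tested.

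**Figure D2:**
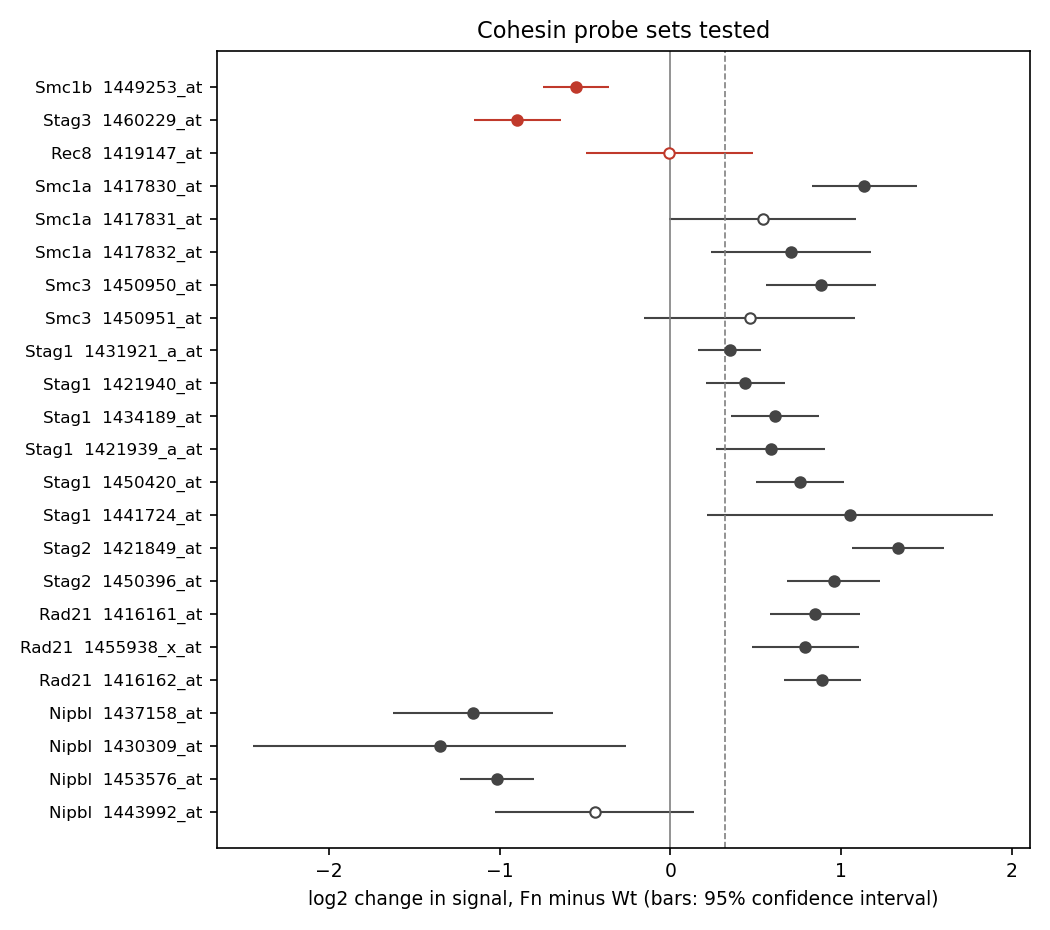
Log2 change of Fn against Wt for the 23 cohesin probe sets tested, with 95% intervals from limma, grouped by gene. Red marks meiotic genes, filled points were called at an adjusted p under 0.05, and dashes mark the all-gene median of 0.32. The changes run from -1.35 (Nipbl 1430309_at) to 1.34 (Stag2 1421849_at), and the interval of Rec8 crosses 0.

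Setting each meiotic gene against its general relative within the same array removes a scaling factor common to that array. The log2 signal of Smc1b minus that of Smc1a averaged 1.02 ± 0.24 in Fn testes and 2.70 ± 0.21 in Wt testes (SD, n = 3 each), a change of -1.69 (SE 0.18). For Stag3 minus Stag1 the averages were 0.59 ± 0.28 in Fn and 1.84 ± 0.09 in Wt testes, a change of -1.24. Stag3 minus Stag2 changed by -2.23 and Rec8 minus Rad21 by -0.85. Smc1a and Stag2 are X-linked, and X-linked genes tested had a median log2 change of 1.01. How much of these differences is shared with other X-linked genes was not tested. In all 4 pairs every Fn array lay below every Wt array. For the pairs with Smc1b or Stag3 this adds nothing new, since the genes of each pair already separated in opposite directions. The change of Rec8 minus Rad21 came from the rise of Rad21 (0.85), as Rec8 changed by -0.01. Stag3 enters both STAG pairs, and the share of all gene pairs without overlap was not computed. The exact two-sided permutation p was 0.10 for each pair, the smallest that 3 arrays against 3 allow, and 0.10 after adjustment over the 4 pairs, so this design could not pass 0.05. Pairing the same-numbered Fn and Wt samples, an exact sign-flip test added after seeing the data gave 0.25 for each pair, the smallest that 3 pairs of samples allow. The level within a pair depends on the probes, and only its change between genotypes has a meaning.

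**Figure D3:**
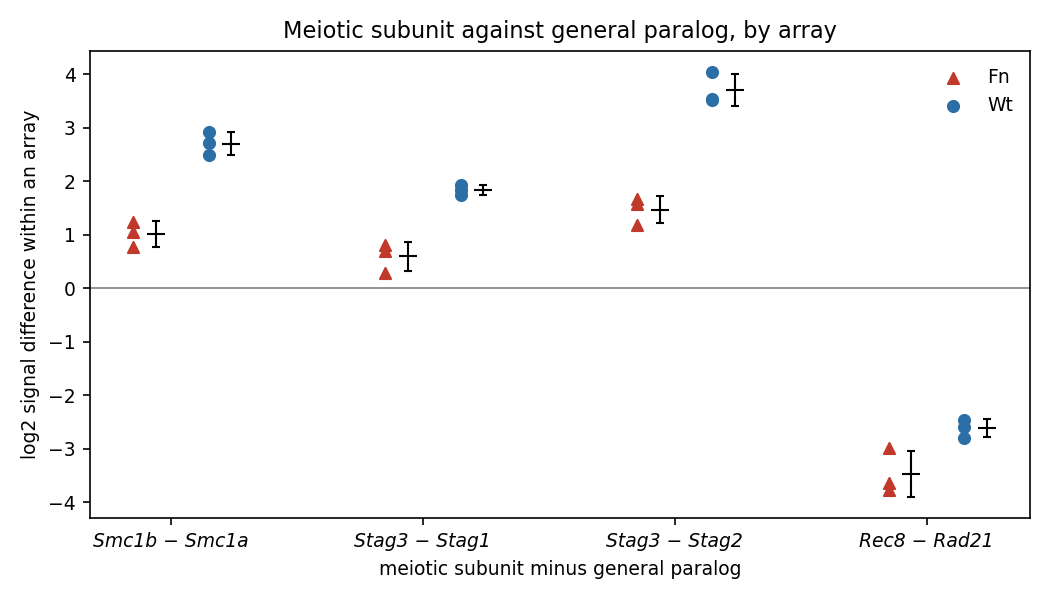
Log2 signal of a meiotic cohesin gene minus that of its general relative in each array, with Fn left of Wt and the mean and SD of 3 arrays. All Fn points lie below all Wt points in the 4 pairs, and the shift is widest for Stag3 minus Stag2, at -2.23. In the pairs of Smc1b and of Stag3 this follows from the separation of each gene alone. Smc1a and Stag2 are X-linked.

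Genes that regulate cohesin did not share one direction. Of 20 genes listed for loading, release, acetylation, protection and cleavage of cohesin, 19 were tested (Ctcfl had no probe set), and 7 were called lower and 6 higher, with a median log2 change of -0.01, beside 24.7% and 44.9% of all genes. Haspin, a kinase that marks histone H3 at centromeres, had the largest change, with 389.8, 472.4 and 284 in Fn testes against 4895.6, 5775.4 and 5580.2 in Wt testes. This was 14.4-fold lower (log2 -3.85, limma adjusted p = 2.4e-07), with no overlap. Aurkc, the Aurora kinase of meiotic germ cells, was lower by 4.60-fold. Meikin, which protects REC8 at kinetochores of the first meiotic division, was lower by 3.25-fold, and Plk1, a kinase that binds MEIKIN, by 2.58-fold. Espl1, which encodes separase, was lower by 2.37-fold and its inhibitor securin, Pttg1, by 1.60-fold. Among genes named after their values were seen, the acetyltransferase Esco2 (log2 0.91), the protector Sgo1 (0.87), the release factor Pds5b (0.71) and the loop anchor Ctcf (0.70) were higher, and Wapl, which opens the ring, was lower by only 0.20 (limma adjusted p = 0.049). The partner of Nipbl in loading, Mau2, was not called (log2 0.30, limma adjusted p = 0.36). Over the other settings tried, 6 to 8 regulators were called lower and 4 to 7 higher. Centring arrays on their medians gave 8 lower and 4 higher.

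The other SMC complexes, condensin and SMC5/6, gave 7 lower and 4 higher of 14 genes tested, with a median of -0.16, beside 24.7% of all genes lower and 44.9% higher. Smc5 had 1991.5, 2150.3 and 1766.5 in Fn testes, against 3977.6, 4398 and 4290.1 in Wt testes, and was 2.15-fold lower (limma adjusted p = 1.2e-05), with no overlap. Nsmce1, a ligase subunit of the same complex, was 2.08-fold lower, and Smc6, the partner of SMC5, was 1.46-fold lower. The condensin core gene Smc4 was 1.40-fold lower. The 4 higher genes, named after their values were seen, were the condensin genes Ncapg2 (log2 0.94), Smc2 (0.27, the partner of Smc4) and Ncapd3 (0.25), and Nsmce4a (0.49) of the SMC5/6 complex. Leaving out Fn replicate 1 or Wt replicate 2, or centring arrays on their medians, gave 2 higher genes in place of 4.

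**Figure D4:**
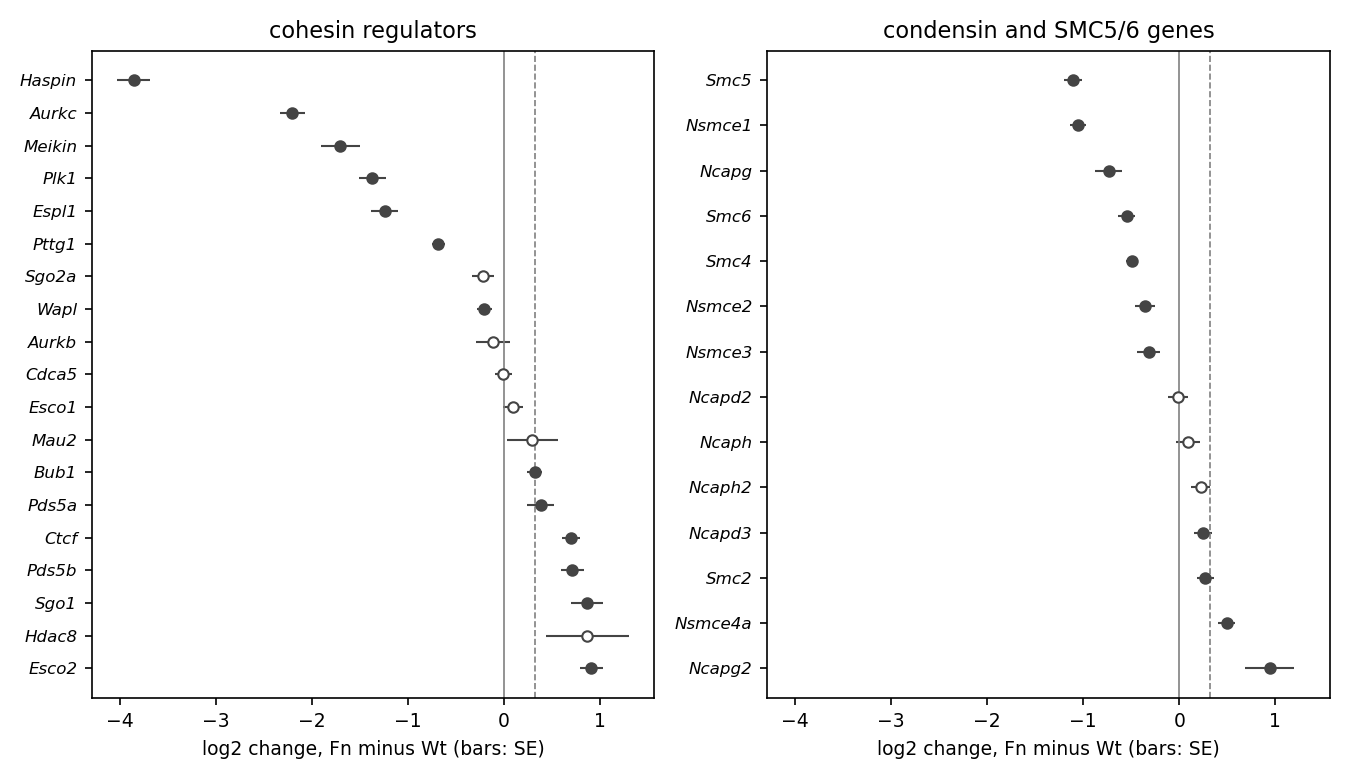
Log2 change of Fn against Wt for the 19 cohesin regulators tested and the 14 condensin and SMC5/6 genes, with bars of 1 SE from limma and filled points where the gene was called (dashed line, median of all genes). Haspin, at -3.85, and Aurkc, at -2.20, lie farthest below 0, while Ncapg2, at 0.94, and Esco2, at 0.91, lie farthest above it.

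Most cell type lists moved with genotype, and their part in the cohesin changes was not tested. The counts stand beside 24.7% of all genes called lower and 44.9% called higher. Spermatogonial genes were called higher in 7 of 7, with a summed signal of 13193 to 15112.2 in Fn testes and 6632.8 to 8149.6 in Wt testes. Sertoli cell genes were higher in 6 of 7 (34694.2 to 35439.2 in Fn, 21783.8 to 25049 in Wt). Peritubular cell genes were higher in 3 of 4 (14890.3 to 15870.9 in Fn, 8740.5 to 10463.9 in Wt). Genes of pachytene and diplotene spermatocytes were lower in 7 of 8, with a summed signal of 12251.4 to 18717.2 in Fn and 59578.9 to 63893.7 in Wt testes, and round spermatid genes in 6 of 6 tested (2143.6 to 2788.8 in Fn, 17293.6 to 20332.4 in Wt). The study describes testes of both genotypes at this age as holding mostly pachytene spermatocytes, with haploid spermatids few or absent. A summed signal is therefore not a measure of how many spermatids were present. Genes of early meiotic prophase overlapped, at 34101 to 37045.3 in Fn and 35814.3 to 39351.6 in Wt testes. Of these 8 genes, 1 was called lower and 2 higher. The brightest genes of the lists give their scale: on the log2 scale Dmrt1 of spermatogonia was higher by 1.05, Clu of Sertoli cells by 0.43 and Acta2 of peritubular cells by 0.62, while Ldhc of pachytene spermatocytes changed by -1.77 and Dkkl1 of round spermatids by -2.98. In early prophase, Sycp3, a protein of the axis on which the meiotic cohesins sit, had a log2 change of 0.10 and Sycp1 one of -0.14, and neither was called. The called genes of this list, named after their values were seen, were Dmc1 (1.01) and Prdm9 (1.11), higher, and Spo11 (-1.41), lower. The overlapping sum therefore does not mean that every gene of the list was unchanged. Leydig cell genes (4 tested) had 2 called higher, but their summed signal overlapped (6000.8 to 11817.7 in Fn, 6051.4 to 10021 in Wt). Macrophage genes (3 tested) had 2 called higher (1821.4 to 2223.4 in Fn, 1255.9 to 1650.3 in Wt). Both shares are to be read against that 44.9%. Endothelial genes (4 tested) had 0 called in limma, with 1 at an unadjusted p under 0.05 (611.8 to 652 in Fn, 464 to 568.8 in Wt). The erythroid gene Alas2 was higher (186.3 to 235.5 in Fn, 122.1 to 129.3 in Wt). Whether each marker was present in each genotype was not tested, since detection calls were not used. No summed signal was at 0, but a sum cannot show that every gene of its list was detected.

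The genes whose log2 signal followed each meiotic subunit most closely over the 6 arrays were found by Pearson correlation, as a description with no test. For Smc1b these were Ero1b (r = 0.9997), Ttc26 and Cfap54, and for Stag3 Tm2d2 (r = 0.9994), Edc4 and Zscan20. All of these had a negative change between genotypes, which the arrays of each genotype share. For Rec8 they were Cdk2 (r = 0.976), Hpse and Rerg, with changes of 0.00, -0.09 and 0.20.

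Over the whole series, the Dazap1 probe set was lower in Fn testes, at 2537.6 to 2819.8, against 4323 to 5045.7 in Wt testes (log2 -0.77, limma adjusted p = 6.7e-05), and where it lies relative to the altered part of the gene is not stated in those sources. Arrays of one genotype correlated with each other at Spearman 0.951 to 0.961 and those of different genotypes at 0.897 to 0.914. The samples are called biological replicates in the labels. Any p-value here therefore covers variation among 6 testis samples and nothing wider.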

How the data were processed

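RNA from 3 Fn and 3 Wt whole testes was hybridised to Affymetrix Mouse Genome 430 2.0 arrays. The values deposited were linear intensity values made with MAS5 and scaled by the authors to a common level: the mean of each array without its highest and lowest 2% was 498.4 to 498.6. No version of MAS5 was named. Detection calls were not used. Of 45037 probe sets, 34945 named 1 gene, 932 several and 9160 none, and only the first kind named genes.

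Signals were floored at 0.1 (1 value of 0), log2-transformed and compared between Fn and Wt by limma 3.58.1 in R 4.3.3 (lmFit, then eBayes allowing a trend with intensity, Benjamini-Hochberg adjustment). The 27022 probe sets tested had a mean log2 signal not below the 40th percentile (signal 48.0). Steps were tested on simulated data. The members and gene lists were chosen with earlier results of these data known. The genes named were all members, then of each pathway list up to 4 with the smallest p and any beyond 2-fold. Other names are marked as chosen afterwards. Of each cell type list the counts and summed signal are given. Deviations of same-numbered Fn and Wt arrays correlated at 0.13, 0.12 and 0.16 and those of other pairs at -0.15 to 0.04. On these weak values, and not on a statement of the study, the replicate numbers were taken to pair the samples in alternatives only. The reported fit and its p-values left the samples unpaired. Alternatives covered scaling, filter, pseudocount, prior variance, pairing and each array left out. Promoter windows came from the RefSeq table of GRCm38.p6, which holds more than 1 transcript start for some genes.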

Additional observations from a re-analysis of the deposited data

How the results depend on the processing

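Over 14 settings beside the one reported, the counts of meiotic and general cohesin genes called lower or higher kept their direction and stayed within 1.5 times, and the meiotic minus general median ran from -1.56 to -1.28. Rec8 was the member whose sign turned: its log2 change ran from -0.22 to 0.22 when single arrays were left out, and was 0.22 without Fn replicate 2 (limma adjusted p = 0.33) and 0.11 without Wt replicate 1 (limma adjusted p = 0.72). Over all probe set results of the members, 275 kept their call and direction, 15 lost the call, 3 gained it and 2 turned sign. With the replicate number as a block, Smc1a 1417831_at gained its call (limma adjusted p = 0.023), and no other member changed its call. The 4 subunit differences kept their size when paired, with an exact sign-flip p of 0.25 each. Of the lost calls, 7 were those of the dim Stag1 1441724_at and 6 those of Nipbl 1430309_at, whose adjusted p reached 0.10 and 0.11. Centring each array on its median ended the calls of Stag1 1431921_a_at and 1421940_at, and also that of 1441724_at. It left 4 general genes higher in place of 5, with the median change of all genes at 0.17 in place of 0.32. The planned comparison of Rad21l with Rad21 was not run, since Rad21l had no probe set. With 3 arrays per genotype the precision is limited by their number, and a probe set reads only the part of a transcript that it matches.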
